A study of Homo sapiens with 20 samples.

Results

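Very wide H3K27ac peaks were taken as the rows of 4 deposited peak lists that spanned 10 kb or more. There were 2361 such rows among 458811 peaks. Rows that overlapped by at least 1 bp were merged over the lists, which gave 986 wide regions. For comparison, all peaks merged in the same way gave 167933 regions. Width chose the regions, so every width, length and count of wide peaks below is a description and carries no test.

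Acetylation of lysine 27 on histone H3 is written by the acetyltransferases p300 and CBP and is a mark of promoters and enhancers in use. Most acetylated stretches are short, but some loci carry long, nearly unbroken tracts, and such tracts are known near genes that set cell identity. SWI/SNF complexes slide and evict nucleosomes, and SMARCB1, a core subunit of some of them, is lost in rhabdoid tumours. Peak callers cut a tract wherever the signal falls below a threshold, so a long tract can be listed as a single wide peak or as a row of narrower ones.

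The libraries came from G401, a human rhabdoid tumour line labelled SMARCB1(-/-). Both groups carried that genotype and received doxycycline, which induced GFP in the control group and SMARCB1 in the other. There were 2 H3K27ac libraries a group, made with micrococcal nuclease, per the series' design. The labels name no dose, no induction time, no clone and no separate cultures for the replicates, so the spread between replicates may be technical. The series' 20 samples also covered H3K4me3, H3K4me1, SMARCA4 and input DNA in the same arms, and those were not analysed here. The smallest two-sided p that an exact permutation test can reach with 2 libraries a group is 0.33.

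Wide peaks were more numerous in the GFP lists, although those lists were shorter. GFP replicate 1 had 678 and GFP replicate 2 had 717, against 617 in SMARCB1 replicate 1 and 349 in SMARCB1 replicate 2. Both GFP libraries thus lay above both SMARCB1 libraries, and SMARCB1 replicate 2 stood well below its replicate. The GFP mean was 697.5 ± 27.6 and the SMARCB1 mean 483 ± 189.5 (SD, n = 2). The difference of -214.5 peaks (SMARCB1 minus GFP) was only slightly larger than the SD of the SMARCB1 pair, and it was -80.5 without SMARCB1 replicate 2 and -348.5 without SMARCB1 replicate 1. Wide peaks held 12.3% and 14.9% of all length under peaks in the GFP lists and 7.59% and 5.06% in the SMARCB1 lists.

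The order of the groups turned with width. Among peaks of 0.2 to 1 kb, the SMARCB1 lists had 1.64 times as many as the GFP lists on average, and from 5 to 10 kb the ratio was 1.02. From 10 to 20 kb the counts were 536 and 551 with GFP and 530 and 304 with SMARCB1 (ratio 0.767), so only SMARCB1 replicate 2 stood clearly lower. From 20 to 40 kb they were 134 and 149 against 80 and 44 (ratio 0.438). Peaks of 40 kb or more numbered 8 and 17 with GFP and 7 and 1 with SMARCB1, so the ratio was lower at greater width. Peaks just under the limit, from 9 to 10 kb, numbered 174, 174, 181 and 131 in GFP replicates 1 and 2 and SMARCB1 replicates 1 and 2, and those just over it, from 10 to 11 kb, numbered 116, 129, 134 and 71.

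The order also changed when short gaps were bridged. When neighbouring peaks of a list were joined across gaps of up to 100 bp, the lists held 879, 884, 885 and 541 peaks of 10 kb or more in the same order. The groups already overlapped there, as SMARCB1 replicate 1 had no fewer than the GFP lists. Joining across up to 200 bp gave 1182, 1194, 1475 and 1012, and the groups still overlapped. Across up to 1 kb there were 2194 and 2033 with GFP and 3318 and 2671 with SMARCB1, so both SMARCB1 lists were then higher (mean difference 881 peaks). The deposited lists gave fewer unbroken tracts with SMARCB1, while joined tracts were more numerous with SMARCB1. The SMARCB1 lists also held more narrow peaks to be joined, and the part of this in the reversal was not tested. The shorter the allowed break, the further the order leaned to GFP, for the 7 settings from 0 to 2000 bp.

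**Figure D1:**
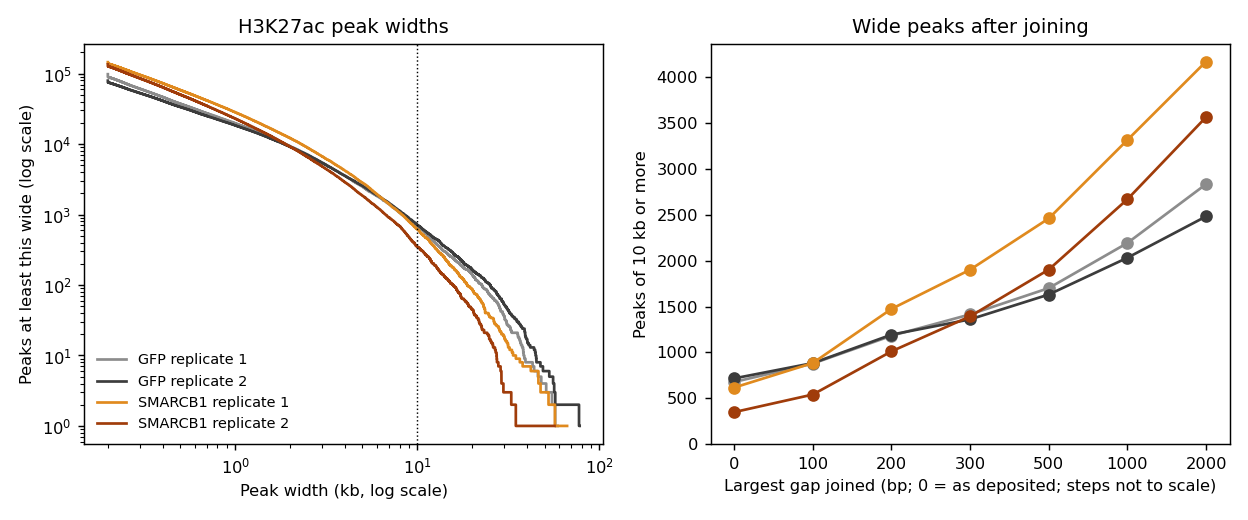
Left, number of H3K27ac peaks at least as wide as the value on the x axis (kb), 1 line per library, both axes logarithmic, with a dotted line at 10 kb. Right, number of peaks of 10 kb or more after peaks of a list were joined across gaps up to the stated size in bp: GFP lies above SMARCB1 at 0 and both SMARCB1 libraries lie above both GFP libraries from 500 bp on.

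Wide peaks were also among the strongest of their lists. The fold enrichment of a peak is the authors' value, how high its summit stood above the background the caller assumed. Its median in wide peaks was 25.1 and 15.2 in GFP replicates 1 and 2, against 4.60 and 3.99 over the whole lists, and 14.97 and 14.5 in SMARCB1 replicates 1 and 2, against 3.72 and 3.68. These medians stood at the 98.3rd, 97.9th, 98.6th and 99.1st percentile of their own lists. The lowest wide peak of each list still had a -log10 q between 14.9 and 19.3. Of the 100 peaks with the highest -log10 p, 54 and 62 were wide with GFP and 55 and 40 with SMARCB1. Fold and width are read from the same pileup of fragments and are not independent of each other. Over the whole lists, the Spearman correlation of width with fold was 0.742 and 0.725 with GFP and 0.687 and 0.670 with SMARCB1. Peaks of 9 to 10 kb had median folds of 22.6 and 13.8 with GFP and 13.3 and 12.9 with SMARCB1. Those of 10 to 11 kb had 23.4 and 13.3 against 14.0 and 11.9, so high fold was not particular to peaks over the limit. Within the wide peaks, the Spearman correlation of width with fold was 0.282 and 0.380 with GFP (678 and 717 peaks) and 0.221 and 0.326 with SMARCB1 (617 and 349 peaks), given as a description.

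The number of fragments at a wide summit was solved from its fold and p-value. The median was 78 and 82 fragments in GFP replicates 1 and 2 and 98 and 76 in SMARCB1 replicates 1 and 2, with a range from 27 to 159 over the lists. For a count of 78, the 95% Poisson interval runs from 61.7 to 97.3, which covers counting error only. The commonest background at these summits was 1.82 and 3.74 fragments with GFP and 4.10 and 3.89 with SMARCB1, where the counts of SMARCB1 replicate 1 had been scaled by 0.855. In unscaled fragments, the unit of the medians above, the background of SMARCB1 replicate 1 was 4.79. The commonest background, which grows with depth, was lowest in GFP replicate 1. In GFP replicate 2 it lay close to that of SMARCB1 replicate 2 and below the unscaled value of SMARCB1 replicate 1. GFP replicates 1 and 2 and SMARCB1 replicates 1 and 2 held 678, 717, 617 and 349 wide peaks. The part of the background in the widths was not tested. Fold is relative to the background, and its median in wide peaks was highest in GFP replicate 1 (25.1). Raw folds, here and below, are therefore not on an equal scale across the lists. Between 51.6% and 63.6% of wide summits sat at the commonest background of their list, and from 1.94% to 4.32% had more than double that level.

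Of the 986 regions, 214 (21.7%) had a wide peak in all 4 libraries. A further 208 (21.1%) had one in each GFP library but in no SMARCB1 library, and are called GFP-wide here. The opposite pattern, called SMARCB1-wide, was found in 54 (5.48%). With 1 library left out, the rule needs only 1 library in that group. There were then 330 GFP-wide and 61 SMARCB1-wide regions without GFP replicate 1. Without SMARCB1 replicate 2, there were 217 GFP-wide and 193 SMARCB1-wide regions. The SMARCB1-wide rule is then looser than the GFP-wide rule, so these counts do not show how far the excess rested on that library. With 1 library a group, replicate 1 gave 321 regions wide only with GFP and 248 wide only with SMARCB1. Replicate 2 gave 461 and 70. Over all 167933 merged regions the calls from all 4 libraries made up 0.12% and 0.0316%, which only restates the choice by width. The remaining 510 regions were mixed, among them 137 wide in SMARCB1 replicate 1 alone and 4 wide in SMARCB1 replicate 2 alone. The wide call was shared by 523 regions between the GFP replicates, which is 83.1% of those of replicate 1 and 76.4% of those of replicate 2. The SMARCB1 replicates shared 293, which is 51.7% of replicate 1 and 94.5% of replicate 2. Nearly all wide regions of SMARCB1 replicate 2 were thus also wide in its replicate, and the reverse did not hold.

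A narrow call in the other group rarely meant that acetylation peaks were missing. A peak of any width was present in every library in 963 of the 986 regions (97.7%), against 16.7% of all merged regions. A region of 10 kb or more counts here from a single short peak anywhere within it. Most listed peaks were under 1 kb, so these shares are not alike in region length and their contrast is not read further. Peaks covered 93.7% and 94.1% of the summed length of the regions in the GFP libraries and 91.4% and 88.3% in the SMARCB1 libraries. The means were 93.9 ± 0.329% and 89.8 ± 2.23% (SD, n = 2). The difference of -4.08 percentage points was -9.82 without SMARCB1 replicate 1, -2.67 without SMARCB1 replicate 2 and -1.90 without GFP replicate 2, since leaving out a library also changes which regions are wide. The covered length was lower in both SMARCB1 libraries than in both GFP libraries in 519 regions (52.6%) and higher in 243 (24.6%). Over the 27997 regions with a peak in every library, 28.9% were lower and 30.3% were higher. Because length was used to choose the regions and more of them were chosen in GFP lists, nothing is read from this excess.

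**Figure D2:**
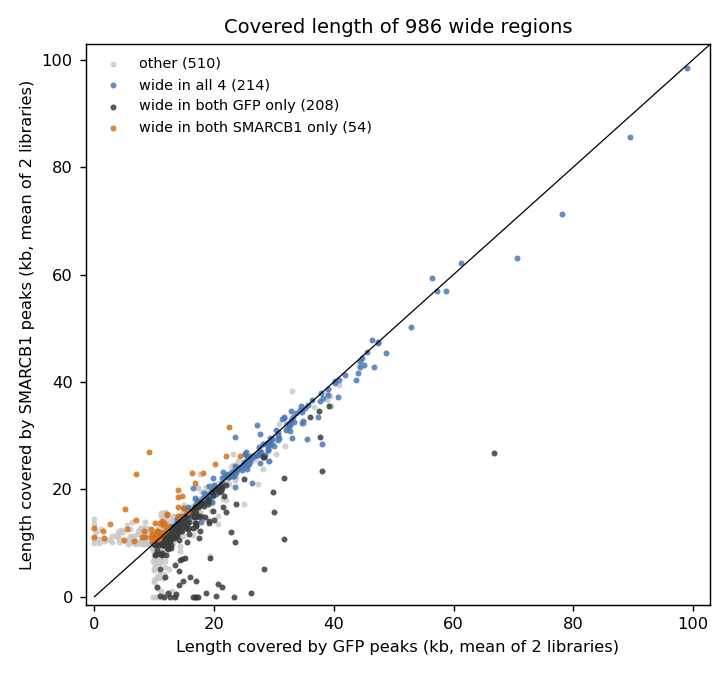
Length covered by called peaks in each of the 986 wide regions, mean of the 2 GFP libraries (x axis, kb) against mean of the 2 SMARCB1 libraries (y axis, kb), coloured by the libraries that had a wide peak. Regions wide in all 4 libraries follow the line of equality, while GFP-wide regions fall below it, some of them to 0.

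The regions that were wide in all 4 libraries were the longest, with a median of 24848 bp against 14052.5 bp for GFP-wide and 13491 bp for SMARCB1-wide regions. The longest, on chromosome 9 from 3891032 to 3990338 (hg19), spanned 99307 bp. Peaks covered 98764 and 99178 bp of it in GFP replicates 1 and 2 and 98797 and 98189 bp in SMARCB1 replicates 1 and 2. The 4 libraries therefore covered it nearly end to end, although its longest single peak was 58964, 77279, 66455 and 56678 bp in the same order. Its highest fold was 34.7 and 19.2 with GFP and 20.7 and 19.2 with SMARCB1.

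The next longest regions were acetylated along most of their length in every library too, with less cover under SMARCB1 in 3 of the 4 described next. The region on chromosome 5 from 103164805 to 103254577 had a cover of 89497 and 89476 bp in the GFP libraries, against 86544 and 84501 bp in the SMARCB1 libraries. On chromosome 1 from 167409793 to 167488316, the values were 78123 and 78217 bp against 71859 and 70829 bp. On chromosome 4 from 166568574 to 166639553, they were 70191 and 70920 bp against 64436 and 61716 bp. In these 3 regions both SMARCB1 libraries lay below both GFP libraries. The fifth longest of this class, on chromosome 8 from 127387895 to 127450382, went the other way, with 61169 and 61420 bp under GFP and 62018 and 62269 bp under SMARCB1. Among all 214 regions of this class, covered length was lower in both SMARCB1 libraries in 103 and higher in 32, against 28.9% lower and 30.3% higher over the regions with a peak in every library. Nothing is read from this, since length chose the class.

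In GFP-wide regions, the SMARCB1 lists mostly held the same stretch in pieces. A region had a median of 2 and 1 peaks in GFP replicates 1 and 2 and of 5 and 6 peaks in SMARCB1 replicates 1 and 2. The median share of a region's length under peaks was 98.9% and 99.6% with GFP and 90.2% and 84.3% with SMARCB1. Of the 208 regions, 125 were still covered over at least 80% in both SMARCB1 libraries, 30 were covered under 50% in both, and 13 under 10% in both. The gaps between neighbouring SMARCB1 peaks were short, with medians of 171 and 178 bp, and 92.8% and 92.9% of them were 1 kb or less. When peaks were joined across gaps of up to 1 kb, a single joined peak spanned at least 80% of the region in both SMARCB1 libraries in 146 of the 208 regions (70.2%). In 32 regions it spanned under 50% in both. Tracts broken by short gaps thus made up most of this class, and tracts without SMARCB1 peaks a small part of it.

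The GFP-wide region with the largest difference in cover was also the fifth longest of all. It lay on chromosome 14 from 100850251 to 100917397 and the GFP libraries covered 66716 and 66876 bp of it. The SMARCB1 libraries covered 31015 and 22399 bp, split into 49 and 42 peaks of at most 2074 and 1858 bp. Its highest fold was 30.1 and 18.4 with GFP and 8.42 and 8.19 with SMARCB1. Both SMARCB1 lists thus held scattered short peaks where the GFP lists held a nearly unbroken tract.

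Other GFP-wide regions had few SMARCB1 peaks or none. On chromosome 8 from 20151459 to 20177860, cover was 25750 and 26402 bp in the GFP libraries, against 793 and 669 bp in the SMARCB1 libraries, and the highest fold was 35.7 and 13.7 against 3.81 and 3.39. On chromosome 3 from 14393793 to 14417304, the GFP libraries covered 23117 and 23512 bp, and neither SMARCB1 list had a peak. On chromosome 1 from 43511093 to 43539406, it was 28312 and 28210 bp against 6538 and 3797 bp. This region was 1 unbroken peak in GFP replicate 1 and 11 peaks in SMARCB1 replicate 1. The last of the 5, on chromosome 3 from 54870885 to 54902762, had 12912 and 8583 bp under SMARCB1 and 31608 and 31737 bp under GFP.

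SMARCB1-wide regions were in more pieces with GFP. A region had a median of 7 and 6 peaks in the GFP lists and of 1 and 2 in the SMARCB1 lists. The median cover was 79.4% and 80.5% with GFP and 99.9% and 98.6% with SMARCB1. Of the 54 regions, 23 were covered over at least 80% in both GFP libraries, 9 under 50% in both, and 2 had no GFP peak. After peaks within 1 kb were joined, a single GFP peak spanned at least 80% of the region in both GFP libraries in 28 of them (51.9%) and under 50% in both in 10. About as many of these tracts were thus broken by short gaps as were not.

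Among the 5 SMARCB1-wide regions with the largest difference in cover, 3 held scattered GFP peaks and 2 held none. The largest lay on chromosome 2 from 36773478 to 36800823, where the GFP libraries covered 9705 and 8505 bp and the SMARCB1 libraries 27346 and 26566 bp. There, 17 and 13 GFP peaks stood in place of 1 unbroken peak in SMARCB1 replicate 1 and 4 peaks in SMARCB1 replicate 2. On chromosome 3 from 159493613 to 159516901, cover was 6409 and 7454 bp against 23289 and 22596 bp, and the highest fold was 6.87 and 5.91 against 15.5 and 12.3. On chromosome 5 from 151050064 to 151066500, cover was 5251 and 4844 bp against 16348 and 16389 bp. The regions with no GFP peak lay on chromosome 3 from 173930453 to 173943406, with 12952 and 12687 bp under SMARCB1, and on chromosome 6 from 142625908 to 142637233, with 11052 and 11102 bp. The choice by largest difference sets the groups apart here.

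**Figure D3:**
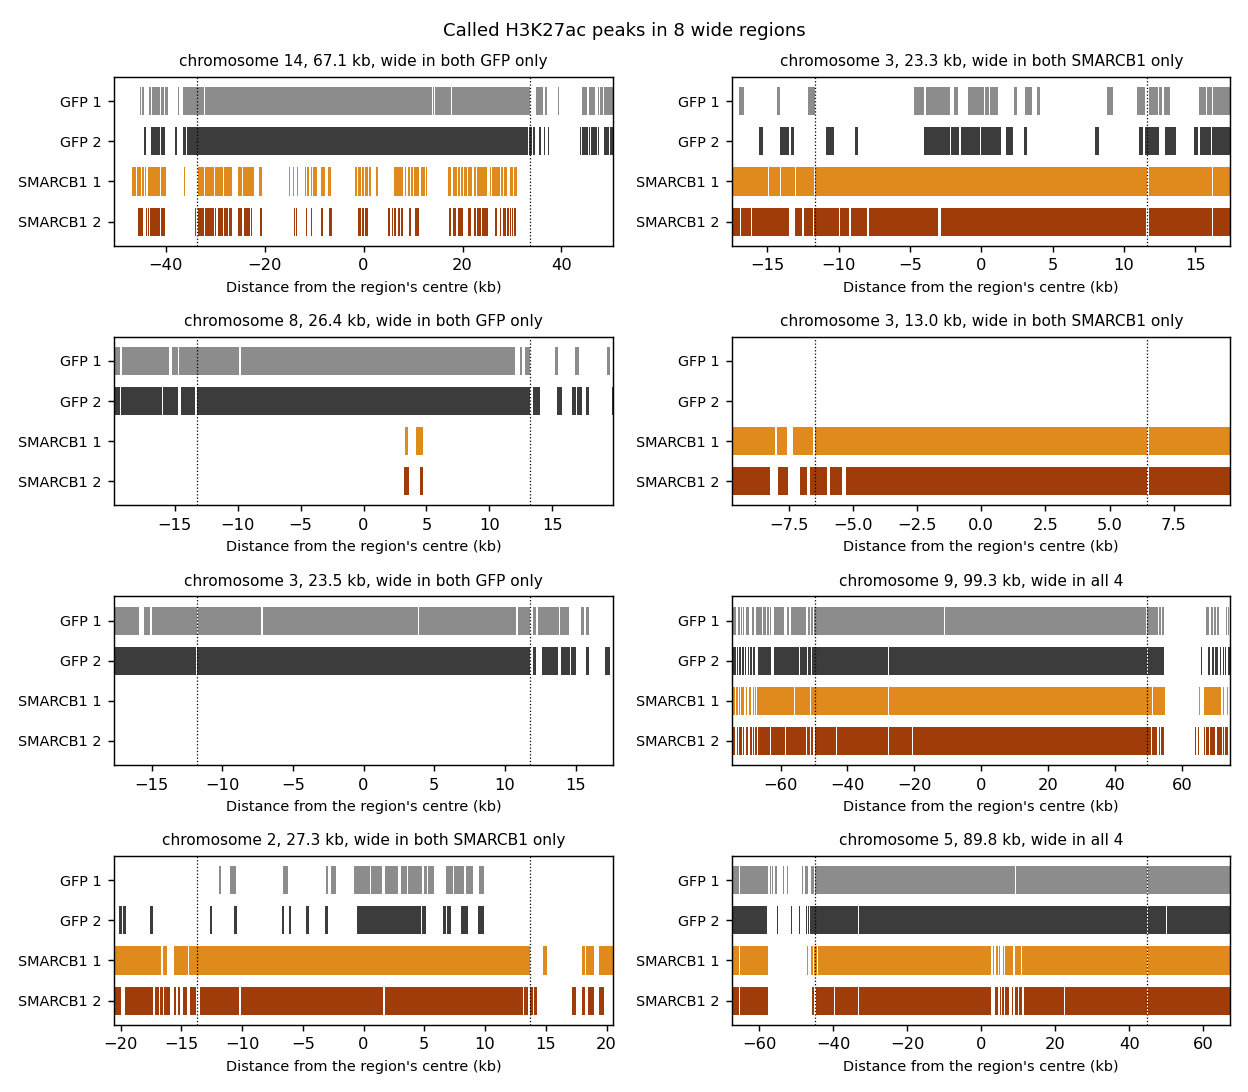
Called peaks (filled blocks) of the 4 libraries in 8 wide regions, 3 GFP-wide, 3 SMARCB1-wide and 2 wide in all 4, with the distance from the centre of the region in kb on the x axis and dotted lines at its ends. The chromosome 14 tract of 67147 bp is split into 49 and 42 short peaks with SMARCB1, and the chromosome 2 tract of 27346 bp into 17 and 13 peaks with GFP.

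Whole absence from a group was rare. A peak in both GFP and in neither SMARCB1 list was found for 12 of the 986 regions (1.22%), against 3.94% of all merged regions. A peak in both SMARCB1 and in neither GFP list was found for 8 (0.811%), against 17.5%. Both shares lay below those of all regions, but a long region has more room for a peak, so nothing is read from this. Several of these regions were neighbours. Of the 12, 3 lay on chromosome 10 between 54375748 and 54441061, and their GFP cover was 16350, 16784 and 11745 bp in GFP replicate 1. Of the 8, 5 lay on chromosome 3 between 173806511 and 174050438, where SMARCB1 replicate 1 called each as a single peak of 10105 to 15064 bp. These 20 regions were grouped by locus after their values had been seen.

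The direction of a change was then read in a replicate that had not been used to find it. Wide regions were rebuilt from the replicate 1 libraries alone, which gave 321 wide with GFP and not with SMARCB1. Covered length in replicate 2 was higher with GFP in 306 of them (95.3%), against 55.6% of the regions with a peak in every library. Of the 248 wide with SMARCB1 and not with GFP in replicate 1, 201 (81.0%) were covered over more length with SMARCB1 in replicate 2, against 44.2%. In the reverse reading, 372 of 461 regions (80.7%) found in replicate 2 were higher with GFP in replicate 1, against 43.6%, and 67 of 70 (95.7%) were higher with SMARCB1, against 56.2%. Most regions thus kept their direction in the replicate that had not chosen them. Covered length is tied to the width used for the choice, and the lists of the choosing replicate set the ends of the regions. The shares given for comparison come from regions of any length, so they are not a like comparison and no excess is read from them. The wide call itself recurred less clearly in some of these sets. Of the 248 regions, 77 were wide with SMARCB1 and 55 with GFP in replicate 2, and of the 461, 319 were wide with GFP and 131 with SMARCB1 in replicate 1. In the other sets the calls were 235 with GFP and 14 with SMARCB1 for the 321 regions, and 63 with SMARCB1 and 9 with GFP for the 70. With 1 library a group, each reading has no replicate check, so no p-value is given.

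Fold rank was compared next, since the regions had been chosen by width, although both come from the same pileup. Every region with a peak in all 4 libraries was ranked by its highest fold within each library, over the same 27997 regions, and given as a percentile. Wide peaks fell into 950 merged regions, of which 928 were in this set. Their median percentile was 92.8 and 93.6 with GFP and 93.7 and 93.6 with SMARCB1. The means were 93.2 ± 0.554 and 93.7 ± 0.0682 (SD, n = 2), a difference of 0.488 percentile points (exact permutation test over libraries, two-sided, p = 0.33, the smallest possible). The difference was smaller than the SD of the GFP pair and turned to -0.352 when the length-weighted mean fold of a region was ranked instead. As a set, wide regions lay near the top of the ranking in every library.

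Single regions moved in both directions. The percentile was higher in both SMARCB1 libraries than in both GFP libraries in 325 of the 928 regions (35.0%), against 28.1% of all ranked regions, and lower in 267 (28.8%), against 30.5%. The share that was higher exceeded that of all ranked regions and the share that was lower did not. This excess was not tested. The 215 ranked regions with wide peaks in every library had medians of 97.4 and 97.4 with GFP and 98.2 and 98.1 with SMARCB1, and 138 of them were in the top 10% in every library, as were 338 of all 928 (36.4%) and 1150 of the 27997 ranked regions (4.11%). GFP-wide regions had medians of 92.8 and 93.8 against 89.4 and 89.0, and SMARCB1-wide regions of 71.0 and 73.1 against 91.5 and 91.1. These last differences follow the choice of the regions by width and are given without a test.

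The 3 ranked regions that moved furthest in each direction, chosen for that difference, are given next. On chromosome 8 from 20150006 to 20177860, the percentile was 99.8 and 89.6 with GFP and 11.7 and 8.24 with SMARCB1. On chromosome 12 from 107505421 to 107525734, it was 85.4 and 97.0 against 10.4 and 3.90, and on chromosome 17 from 48058318 to 48072560 it was 94.8 and 93.3 against 22.7 and 6.47. The largest rise lay on chromosome 11 from 84536695 to 84547012, from 9.92 and 19.3 with GFP to 87.0 and 84.7 with SMARCB1. It was followed by chromosome 16 from 11173679 to 11184424, from 28.8 and 16.4 to 88.3 and 85.5, and by chromosome 3 from 14509814 to 14527106, from 37.6 and 28.7 to 92.9 and 95.8. The 3 that were lower with SMARCB1 had percentiles from 3.90 to 22.7 there, and the 3 that were higher had GFP percentiles from 9.92 to 37.6.

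The replicates ranked the wide regions more alike than the groups did. Over the 928 regions the Spearman correlation of percentiles was 0.781 between the GFP and 0.848 between the SMARCB1 replicates, and from 0.509 to 0.561 between groups. These are descriptions across regions of the same libraries. The 928 regions include 193 GFP-wide and 51 SMARCB1-wide ones. Fold is tied to width, so the choice by width can itself lower the correlation between groups. The correlation is not given over all ranked regions, so nothing further is read from it. The strongest summit was likewise closer between replicates than between groups by median distance. In the 963 wide regions with a peak in every library, the strongest summits of a region lay a median of 410 bp apart between the GFP replicates and 251 bp between the SMARCB1 replicates. Between groups the median ran from 525 to 714 bp. In the 214 regions wide in all 4 libraries the values were 692.5, 380.5 and from 760.5 to 1014 bp, so the strongest point within these long tracts varied between all libraries. The share of these regions with summits within 500 bp was 43.9% for the GFP replicates and 52.8% for the SMARCB1 replicates. It was 44.4% for GFP replicate 1 with SMARCB1 replicate 1, and from 37.4% to 41.6% for the other pairs between groups. By this share the GFP replicates were not clearly closer than pairs between groups.

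The authors' tables of stitched enhancers, made with ROSE, join peaks distal to transcription start sites and mark some joined regions as super-enhancers, per their headers. Every wide peak lay in a stitched region of its own library, which does not by itself place it away from start sites. There, 207 of 678 and 206 of 717 wide peaks stood alone with GFP, and 209 of 617 and 100 of 349 with SMARCB1. The median fold of the lone ones was 26.7, 15.6, 14.99 and 14.7 in GFP replicates 1 and 2 and SMARCB1 replicates 1 and 2, and that of the joined ones was 24.7, 15.1, 14.8 and 14.3. Wide peaks with and without stitched partners were thus similar in fold in each list.

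The marks and ranks of these tables could not be read for single wide peaks. In GFP replicate 1 the table gives 26982 regions only 107 different IDs, and the other tables likewise give 19377, 36063 and 30305 regions 92, 137 and 138 IDs. An ID fixed the number of joined peaks, and 0 IDs held both marked and unmarked regions. The signal by which the regions are ranked is a single value for all regions with the same ID. None of the regions of 1 peak was marked, wide or not, so the missing mark of a lone wide peak says nothing about that peak. Counts of marked wide regions are therefore not compared between groups.

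The same tables, whose headers name a map of regions distal to transcription start sites, showed which peaks the authors had left out. In every list, all peaks of 5 kb or more were kept, while from 17.1% to 30.6% of peaks of 2 to 5 kb were left out. The step came with width, so being kept does not show that a wide peak lay away from start sites. Of all peaks under 5 kb, from 13.8% to 23.4% were in no stitched region. Among narrow peaks inside GFP-wide regions this share was 2.91% and 3.63% in the SMARCB1 lists, against 13.8% and 15.2% over the lists. Among narrow peaks inside SMARCB1-wide regions it was 2.33% and 2.03% in the GFP lists, against 20.8% and 23.4%. A left-out peak that lies within a longer stitched region counts as kept here, so these shares are lower bounds and are lower where peaks are dense, and how many of the pieces lay near start sites is not settled by them.

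Wide regions lay on every autosome and none lay on chromosome X, where the widest peaks of the 2 GFP lists were 8029 and 9060 bp and those of the SMARCB1 lists 8682 and 6365 bp. Chromosome X held 1045 of 98251 and 816 of 79555 peaks in the GFP lists. In the SMARCB1 lists it held 1210 of 145533 and 988 of 135472, so its lack of wide regions is not read further. Chromosome 1 held 109 (11.1% of wide regions, against 9.58% of all merged regions). It had 83 and 88 wide peaks with GFP and 51 and 27 with SMARCB1, and 32 GFP-wide against 4 SMARCB1-wide regions. Chromosome 2 held 85, with 53 and 54 wide peaks under GFP and 60 and 37 under SMARCB1, so the groups overlapped there. Chromosome 19 held 3.55% of wide regions and 5.55% of all regions, and chromosome 16 held 2.54% and 4.84%. Another wide region was often close by, in part because a tract can be split by a short gap. In 655 of 986 (66.4%) another one was within 100 kb, and among regions wide in all 4 libraries 169 of 214 (79.0%) had such a neighbour. The distance was 1 kb or less for 120 of the 655 and longer for 535. Spacing was not compared with that of other peaks. Of 441 pairs of adjacent wide regions within 100 kb, 25 joined GFP-wide regions to each other, 3 joined SMARCB1-wide regions to each other, and 3 joined a GFP-wide to a SMARCB1-wide region.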

How the data were processed

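The authors called and filtered H3K27ac peaks per library (MACS2, hg19), per the names of the deposited files. Reads had been aligned with BWA 0.7.12-r1039, per the submitters' processing notes. The caller's version and control are not given in the sources used here. The fold enrichment is a ratio computed by the authors, who also deposited each peak's significance as -log10 p and -log10 q. Stitched regions came from ROSE, per the file headers. Tables were assigned by name, and 100% of their region starts were found in the peak list of that library. Left aside were 4 columns of per-sample values that no sample's name matched, and the signal column, which repeats 1 value over all regions with the same ID.

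From these files, peaks of 10 kb or more were merged (1 bp), and cover, pieces, fold and percentiles were computed per library. Coordinates are 1-based. Summit fragments were solved from fold and p with a Poisson upper tail (100% within 0.005 in -log10 p). The fragment solver recovered 100% of 500 simulated summits, and the class rules were tested on simulated data. Regions named are the 5 longest, the 5 with the largest difference of cover in each group's class, the 5 longest wide in all 4 libraries, and the 3 that moved furthest up and down in fold percentile. The joining distances other than 1 kb and the reading in a held-out replicate were chosen after seeing the data. The members and lists were chosen with earlier results of these data known. No hg19 annotation or genome was used here, so genes and sequences are not given. Peaks of H3K4me3, H3K4me1 and SMARCA4 were not analysed here. Read totals were not used, so precision rests on the solved fragments and on n = 2. Scripts ran in Python 3.11.15 (scipy 1.17.1, pandas 2.3.3, numpy 2.4.6, with figures in matplotlib 3.10.9).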

Additional observations from a re-analysis of the deposited data

How the results depend on the processing

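The difference in wide peaks (main value -214.5, SMARCB1 minus GFP) kept its sign at widths of 8 and 15 kb and ranged from -348.5 to -80.5 without 1 library. A -log10 q of at least 5 and equal numbers of strongest peaks removed no wide peak, so they test nothing here. The difference reversed to 55.5, 516 and 881 when peaks within 200 bp, 500 bp and 1 kb were joined, choices made for 200 and 500 bp after seeing the data. The cover difference of -4.08 percentage points ranged from -9.82 to -1.90 without 1 library and reversed to 14.6 with joined peaks, whose regions include the gaps. With the 349 widest peaks of each list there were 74 GFP-wide and 57 SMARCB1-wide regions. GFP-wide regions numbered 290 at 8 kb, 91 at 15 kb, 50 when a library counted from 50% cover and 269 with joined peaks. They numbered from 217 to 330 without 1 library. SMARCB1-wide regions numbered 118 at 8 kb, 11 at 15 kb, 34 by 50% cover and 816 with joined peaks, and from 61 to 193 without 1 library, most without SMARCB1 replicate 2. The fold percentile difference of 0.488 reversed to -0.352 with mean fold and ranged from 0.204 to 0.942 without 1 library. The causes were not tested beyond each setting's construction. Taking the replicate number as a block left the means at -214.5 peaks, -4.08 and 0.488 percentile points. The pairs differed by -61 and -368 peaks, by -2.27 and -5.89 percentage points of cover and by 0.929 and 0.0482 percentile points (exact sign-flip test, smallest p = 0.5). No label ties a number to a shared batch, so pairing was not established. Alternatives on gene starts were not run.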
